A study of Mus musculus with 8 samples.

Results

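The genes described here are 54 genes whose products act in G2 and mitosis, followed through the first days of reprogramming in mouse cells with or without CSA. They were listed by name, with earlier results of these data known. Each gene was read from the probe set with 1 gene symbol that had the highest mean signal over the 8 arrays. Of the 54 genes, 53 had such a probe set, and all 53 passed the filter on low signals. The remaining gene is Ccnb1, the partner cyclin of CDK1, which had no probe set with a symbol of its own and is not described further. The whole table covered 18193 genes, of which 12529 were tested.

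The samples came from a secondary OSKM system, in which the cells already carry the reprogramming factors Oct4, Sox2, Klf4 and c-Myc as inducible transgenes. All groups had a C57BL/6 background and were started with dox at 2 mg/ml, as the labels write it, in mouse ES cell medium with 15% serum and 100 units/ml LIF. There were 4 groups with 2 biological repeats each: CSA (10 mM, as the labels write it) at day 3, DMSO at day 3, CSA at day 6 and DMSO at day 6. The units of both concentrations are the labels' own and could not be checked here. The series title places CSA under inhibition of the calcineurin-NFAT pathway and DMSO under the control condition. The sources used here do not give the starting cell type, the transgene design or the number of cell lines behind the repeats.

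Entry into mitosis is driven by CDK1 bound to cyclin B, which CDC25 phosphatases activate and which Aurora A and PLK1 help to switch on. The spindle checkpoint then holds the anaphase-promoting complex back until every kinetochore is attached, after which separase opens the chromosomes' cohesin rings and the cell divides. Most of these genes are transcribed late in the cell cycle by B-MYB and FOXM1 together with the MuvB complex, which binds an element called the cell cycle genes homology region (CHR), often beside CCAAT boxes bound by NF-Y. In resting cells the same elements are held silent by the DREAM complex.

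The promoters of 45 of the 54 genes were matched in RefSeq (GRCm38.p6) as 250 bases before to 50 bases after the annotated start, 300 bases in all. The CHR was searched as TTTGAA or TTCGAA and the CCAAT box as CCAAT, both on either strand. A CHR match was present in 34 of the 45 promoters (75.6%), against 19.4% of all 27025 promoters of the same length. A CCAAT match was present in 33 of them (73.3%), against 37.9% of all promoters, and both were present in 30 (66.7%), against 7.70%. The E2F element, searched as TTTCCCGC or TTTGGCGC on either strand, was present in 1 of the 45 (2.22%), against 1.63% of all promoters. The promoters below are those of the 5 matched genes with the smallest p-value for CSA at day 3, and capitals mark CHR and CCAAT matches (ATTGG is CCAAT on the other strand).
Aurka: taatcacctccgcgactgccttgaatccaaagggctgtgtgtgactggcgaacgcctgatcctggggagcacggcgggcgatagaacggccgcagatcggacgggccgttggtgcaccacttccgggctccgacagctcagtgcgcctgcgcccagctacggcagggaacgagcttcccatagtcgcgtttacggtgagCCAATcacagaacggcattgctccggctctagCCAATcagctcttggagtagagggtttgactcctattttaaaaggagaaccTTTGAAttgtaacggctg
Cdk1: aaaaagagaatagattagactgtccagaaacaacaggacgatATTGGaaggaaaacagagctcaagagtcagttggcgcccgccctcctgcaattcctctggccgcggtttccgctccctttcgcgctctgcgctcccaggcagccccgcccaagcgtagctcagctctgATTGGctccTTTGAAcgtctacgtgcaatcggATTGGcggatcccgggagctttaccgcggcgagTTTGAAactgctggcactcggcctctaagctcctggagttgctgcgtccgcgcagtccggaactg
Cenpa: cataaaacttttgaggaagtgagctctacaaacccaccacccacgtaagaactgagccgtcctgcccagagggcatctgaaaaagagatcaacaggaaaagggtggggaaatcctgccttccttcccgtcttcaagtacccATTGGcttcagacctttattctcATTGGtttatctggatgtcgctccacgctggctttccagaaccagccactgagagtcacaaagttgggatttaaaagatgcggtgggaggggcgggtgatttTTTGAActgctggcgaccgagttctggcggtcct
Ckap2: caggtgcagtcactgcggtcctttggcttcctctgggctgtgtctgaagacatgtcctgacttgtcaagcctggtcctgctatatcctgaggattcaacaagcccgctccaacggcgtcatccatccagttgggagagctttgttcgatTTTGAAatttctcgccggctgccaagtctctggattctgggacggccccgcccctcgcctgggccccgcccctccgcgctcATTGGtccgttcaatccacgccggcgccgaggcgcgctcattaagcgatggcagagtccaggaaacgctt
Birc5: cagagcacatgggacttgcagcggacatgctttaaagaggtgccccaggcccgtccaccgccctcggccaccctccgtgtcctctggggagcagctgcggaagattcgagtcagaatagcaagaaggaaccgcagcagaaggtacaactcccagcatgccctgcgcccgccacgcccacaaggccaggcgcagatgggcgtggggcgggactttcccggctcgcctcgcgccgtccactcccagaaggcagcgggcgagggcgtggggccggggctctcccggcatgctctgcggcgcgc
The Aurka promoter (chr2:172370521-172370820, minus strand) held CCAAT boxes at -51 and -19 and a CHR at 32, counted from the annotated start. That of Cdk1 (chr10:69352863-69353162, minus strand) held CCAAT boxes at -208, -80 and -48 and CHR matches at -71 and -15. In Cenpa (chr5:30666636-30666935, plus strand) CCAAT boxes stood at -109 and -86 and the CHR at 16. The Ckap2 window (chr8:22185770-22186069, minus strand) had its CHR at -101 and its CCAAT box at -20. The Birc5 window (chr11:117848987-117849286, plus strand) held neither set of letters. A match is a description of these letters and not a measured binding site.

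Log2 signals are used throughout, and a difference is the first group's mean minus the second's, ± its moderated standard error from limma, with 2 arrays per group. Adjusted p-values are from limma with Benjamini-Hochberg adjustment over all 27022 tested probe sets, and a gene is said to have risen or fallen where that value was under 0.05. Signals of different probe sets are not set against each other. Across all tested probe sets, arrays of 1 group correlated at 0.968 to 0.974, arrays of the same day and the other treatment at 0.957 to 0.963, and arrays of different days at 0.918 to 0.943. Among markers, the 10 fibroblast genes and the 8 epithelial genes were all above the filter, while 5 of 10 pluripotency genes were below it (Nanog, Sox2, Zfp42, Dppa3 and Tdgf1). The RNA was from whole cultures, in which fewer cells in G2 or mitosis and less RNA per such cell cannot be told apart.

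At day 3 most of the G2 and mitosis genes were lower under CSA. Of the 53 genes, 40 fell and 0 rose, where 4.23% of all tested probe sets fell and 5.35% rose. The median difference was -0.62 over the 53 genes and -0.00 over all 12529 genes tested. The single differences ran from -1.07 for Aurka to 0.03 for Nek2, and 52 of 53 were negative. In 51 of 53 genes both CSA arrays lay below both DMSO arrays. How many of all genes tested show this order was not counted. At an unadjusted p under 0.05 in limma, 50 genes were lower and 0 higher, beside 1722 lower and 1907 higher of all 12529 genes tested. Leaving out 1 array at a time left between 27 genes lower (without CSA replicate 2 of day 3) and 42, and 24 of the 40 stayed past the threshold whichever array was left out. A fit whose spread did not follow the signal intensity left 8 genes past it (Aurka, Birc5, Cdk1, Cenpa, Ckap2, Hmmr, Kif11 and Plk1), with adjusted p between 0.0519 and 0.208 for the other 32. Averaging the probe sets of each gene left 26 genes lower. Probe sets of a type that may read several genes, or several transcripts of 1 gene, are called several-gene probe sets here. Leaving them out kept 43 genes, of which 30 were lower. Genes with no other probe set, such as Birc5, Nuf2 and Kif20a, had no value in that alternative. The counts that follow leave it out for such genes. Of the 40 genes, 15 kept their call under all alternatives other than the one without the intensity trend, and 5 under all alternatives (Birc5, Cdk1, Ckap2, Kif11 and Plk1).

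**Figure D1:**
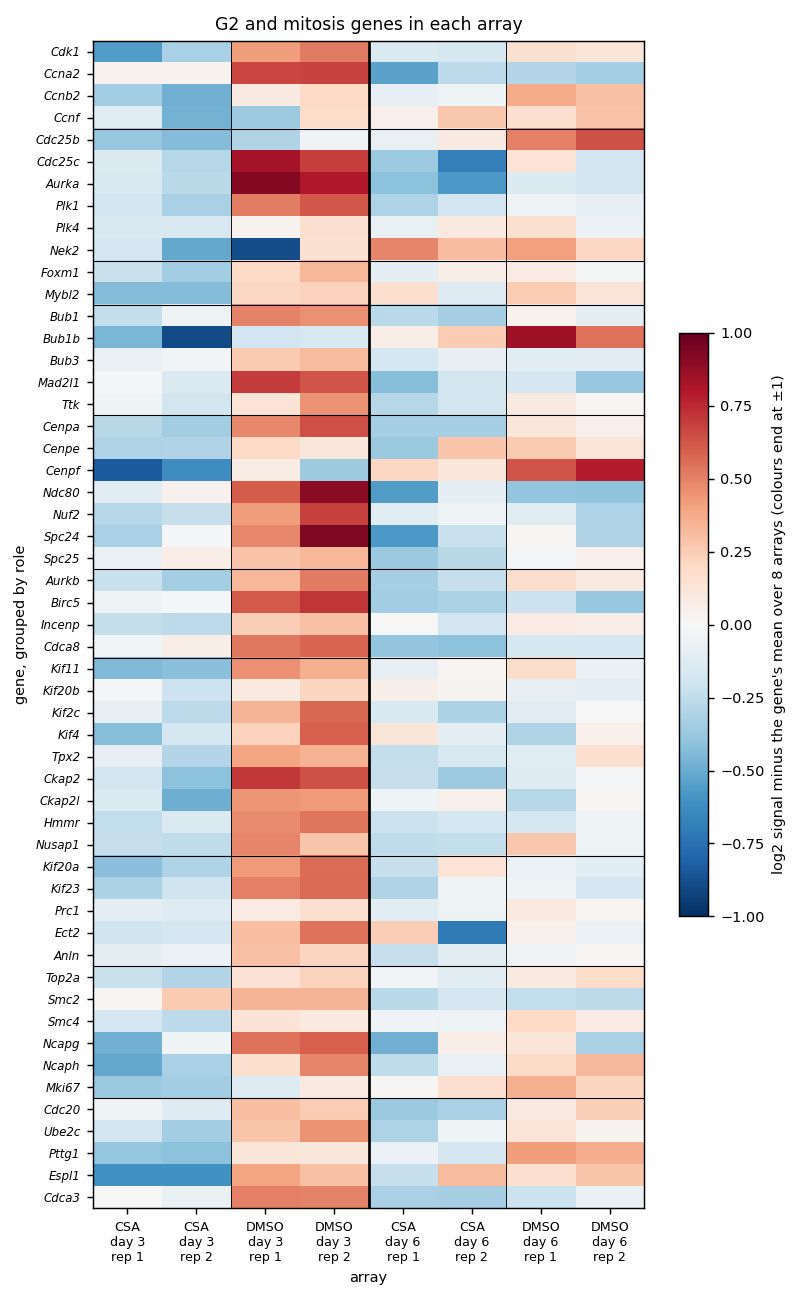
Log2 signal of each of the 53 genes (rows, grouped by role) in each array (columns, CSA left of DMSO at day 3 and then at day 6), minus the gene's mean over the 8 arrays. The 2 DMSO arrays of day 3 stand above the other 6 for most genes, while Cenpf, Bub1b and Cdc25b are highest in the DMSO arrays of day 6.

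Of the 4 measured genes for CDK1 and its cyclins, 3 fell at day 3. Cdk1, the kinase that drives mitosis, stood at 10.73 and 10.97 in CSA and 11.71 and 11.81 in DMSO at day 3, and at 11.15 and 11.11 in CSA and 11.44 and 11.41 in DMSO at day 6. It fell by 0.91 ± 0.09 (adjusted p = 0.000153), and the CSA and DMSO arrays of day 3 did not overlap. Ccna2 encodes cyclin A2, which acts in S phase and G2. It stood at 11.34 and 11.34 in CSA and 11.98 and 11.99 in DMSO at day 3, and at 10.77 and 11.05 in CSA and 11.02 and 10.97 in DMSO at day 6 and fell by 0.64 ± 0.09 (adjusted p = 0.00146). The cyclin B2 gene Ccnb2 stood at 9.71 and 9.57 in CSA and 10.15 and 10.26 in DMSO at day 3, and at 9.97 and 10.02 in CSA and 10.43 and 10.35 in DMSO at day 6 and fell by 0.56 ± 0.10 (adjusted p = 0.00498), with no overlap at day 3. Leaving out CSA replicate 2 of day 3 put Ccnb2 at -0.49 (adjusted p = 0.0559). The fourth, Ccnf, which encodes a substrate receptor of an SCF ubiquitin ligase, differed by -0.21 ± 0.21 (adjusted p = 0.618).

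Among the 6 entry kinases and phosphatases, 3 fell. Aurka encodes Aurora A, which matures centrosomes and activates PLK1, and it stood at 10.57 and 10.46 in CSA and 11.65 and 11.53 in DMSO at day 3, and at 10.32 and 10.15 in CSA and 10.59 and 10.55 in DMSO at day 6. Its fall of 1.07 ± 0.09 (adjusted p = 8.02e-05) on the log2 scale was the largest of the 53 genes at day 3, a signal 2.10-fold lower under CSA. The mean over all its probe sets with 1 symbol, taken before the filter on low signals, was -0.71 (adjusted p = 0.46). Plk1, a kinase needed from mitotic entry to cytokinesis, stood at 9.78 and 9.64 in CSA and 10.48 and 10.59 in DMSO at day 3, and at 9.66 and 9.77 in CSA and 9.92 and 9.89 in DMSO at day 6. It fell by 0.82 ± 0.10 (adjusted p = 0.000635). Cdc25c, a phosphatase that activates CDK1, stood at 7.69 and 7.54 in CSA and 8.66 and 8.52 in DMSO at day 3, and at 7.47 and 7.15 in CSA and 7.97 and 7.64 in DMSO at day 6. It fell by 0.97 ± 0.21 (adjusted p = 0.0137), but its other probe set differed by -0.15 (adjusted p = 0.752), and the call ended without CSA replicate 1 (adjusted p = 0.0562), CSA replicate 2 (0.0966) or DMSO replicate 1 (0.0735) of day 3, or on averaging its probe sets (0.0819). The other 3 genes did not pass the test: Cdc25b at -0.24 ± 0.12 (adjusted p = 0.258), Plk4, the kinase of centriole duplication, at -0.25 ± 0.11 (adjusted p = 0.206), and Nek2, a centrosome kinase, at 0.03 ± 0.26 (adjusted p = 0.972).

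Of the 2 transcription factors of the programme, 1 passed the test. Mybl2, which encodes B-MYB, stood at 8.37 and 8.37 in CSA and 9.02 and 9.03 in DMSO at day 3, and at 8.97 and 8.68 in CSA and 9.06 and 8.93 in DMSO at day 6. It fell by 0.65 ± 0.14 (adjusted p = 0.0156). The call rested on all 4 arrays of day 3: adjusted p was 0.0826 and 0.0877 without CSA replicates 1 and 2, and 0.0551 and 0.0653 without DMSO replicates 1 and 2. Averaging its probe sets put it at -0.56 (adjusted p = 0.1). Foxm1 stood at 7.52 and 7.40 in CSA and 7.94 and 8.08 in DMSO at day 3, and at 7.66 and 7.81 in CSA and 7.82 and 7.72 in DMSO at day 6. Its difference of -0.55 ± 0.19 (adjusted p = 0.108) at day 3 missed the threshold although the groups did not overlap.

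In the spindle checkpoint, 3 of 5 genes fell. Mad2l1 encodes MAD2, which holds CDC20 away from the anaphase-promoting complex. It stood at 11.26 and 11.13 in CSA and 11.97 and 11.90 in DMSO at day 3, and at 10.85 and 11.09 in CSA and 11.11 and 10.90 in DMSO at day 6 and fell by 0.74 ± 0.10 (adjusted p = 0.00112). Bub1, a checkpoint kinase at the kinetochore, stood at 10.06 and 10.24 in CSA and 10.79 and 10.75 in DMSO at day 3, and at 10.02 and 9.96 in CSA and 10.33 and 10.21 in DMSO at day 6. It fell by 0.62 ± 0.10 (adjusted p = 0.00266), and averaging its probe sets put it at -0.47 (adjusted p = 0.0565). Bub3, the adaptor that brings BUB1 and BUBR1 to kinetochores, stood at 12.15 and 12.19 in CSA and 12.49 and 12.54 in DMSO at day 3, and at 12.05 and 12.14 in CSA and 12.12 and 12.11 in DMSO at day 6. It fell by 0.34 ± 0.07 (adjusted p = 0.00767), and by 0.32 without CSA replicate 1 of day 3 (adjusted p = 0.0711), while averaging its probe sets put it at -0.36 (adjusted p = 0.546). Bub1b, which encodes BUBR1, differed by -0.50 ± 0.17 (adjusted p = 0.0922) in its brightest probe set and by -0.61 ± 0.14 (adjusted p = 0.0181) in another. The checkpoint kinase Ttk differed by -0.41 ± 0.15 (adjusted p = 0.121).

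Of the 7 centromere and kinetochore genes, 5 fell. Cenpa encodes the histone H3 variant that marks centromeres, and it stood at 10.52 and 10.45 in CSA and 11.28 and 11.44 in DMSO at day 3, and at 10.47 and 10.46 in CSA and 10.91 and 10.85 in DMSO at day 6. It fell by 0.87 ± 0.09 (adjusted p = 0.000161). Another probe set of Cenpa differed by -0.63 ± 0.32 (adjusted p = 0.259), and the mean over its probe sets was -0.74 (adjusted p = 0.363). The 4 subunits of the NDC80 complex, which grips microtubules, all had negative differences, and 3 of them passed. Nuf2 stood at 9.38 and 9.44 in CSA and 10.09 and 10.35 in DMSO at day 3, and at 9.56 and 9.62 in CSA and 9.55 and 9.36 in DMSO at day 6 and fell by 0.81 ± 0.12 (adjusted p = 0.00199). Ndc80 stood at 8.66 and 8.80 in CSA and 9.36 and 9.66 in DMSO at day 3, and at 8.20 and 8.67 in CSA and 8.36 and 8.36 in DMSO at day 6 and fell by 0.78 ± 0.18 (adjusted p = 0.017). Spc24 fell by 0.87 ± 0.20 (adjusted p = 0.0189), and Spc25 differed by -0.31 ± 0.10 (adjusted p = 0.0813). Cenpf, a large coiled-coil protein of the outer kinetochore, fell by 0.59 ± 0.15 (adjusted p = 0.0265), while Cenpe, a kinetochore kinesin, differed by -0.46 ± 0.18 (adjusted p = 0.135). The Ndc80 call ended without CSA replicate 1 (adjusted p = 0.119), CSA replicate 2 (0.0692) or DMSO replicate 2 (0.115) of day 3. That of Spc24 ended without CSA replicate 1 (0.147) or DMSO replicate 2 (0.134). That of Cenpf ended without CSA replicate 1 (0.18), CSA replicate 2 (0.0649) or DMSO replicate 1 (0.154), and averaging its probe sets put it at -0.22 (0.558).

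All 4 genes of the chromosomal passenger complex fell. This complex carries Aurora B to centromeres and later to the midzone, where it corrects attachments and directs cytokinesis. Birc5, which encodes survivin, stood at 11.02 and 11.04 in CSA and 11.68 and 11.78 in DMSO at day 3, and at 10.72 and 10.74 in CSA and 10.85 and 10.68 in DMSO at day 6. It fell by 0.69 ± 0.08 (adjusted p = 0.00054). Cdca8, the borealin gene, stood at 11.19 and 11.28 in CSA and 11.74 and 11.79 in DMSO at day 3, and at 10.82 and 10.80 in CSA and 11.04 and 11.03 in DMSO at day 6 and fell by 0.53 ± 0.07 (adjusted p = 0.00126). Incenp, the scaffold of the complex, stood at 11.20 and 11.18 in CSA and 11.68 and 11.73 in DMSO at day 3, and at 11.43 and 11.24 in CSA and 11.52 and 11.50 in DMSO at day 6. It fell by 0.52 ± 0.08 (adjusted p = 0.00234). The Aurora B gene Aurkb stood at 9.27 and 9.15 in CSA and 9.82 and 10.01 in DMSO at day 3, and at 9.16 and 9.25 in CSA and 9.66 and 9.58 in DMSO at day 6 and fell by 0.71 ± 0.12 (adjusted p = 0.00344). In all 4 genes both CSA arrays of day 3 lay below both DMSO arrays, an order that was not counted over all genes tested.

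The kinesins and spindle proteins held 9 genes, of which 8 fell. Ckap2, a microtubule-associated spindle protein, stood at 10.80 and 10.58 in CSA and 11.70 and 11.63 in DMSO at day 3, and at 10.76 and 10.63 in CSA and 10.86 and 10.98 in DMSO at day 6 and fell by 0.97 ± 0.10 (adjusted p = 0.000161). Hmmr, whose product RHAMM binds spindle microtubules, stood at 9.81 and 9.91 in CSA and 10.53 and 10.59 in DMSO at day 3, and at 9.84 and 9.88 in CSA and 9.89 and 10.02 in DMSO at day 6. It fell by 0.70 ± 0.10 (adjusted p = 0.00122); its other probe sets differed by -0.92 to -0.09. Kif11, the motor that pushes spindle poles apart, stood at 8.45 and 8.48 in CSA and 9.35 and 9.25 in DMSO at day 3, and at 8.81 and 8.91 in CSA and 9.08 and 8.82 in DMSO at day 6 and fell by 0.84 ± 0.14 (adjusted p = 0.00346). Ckap2l fell by 0.74 ± 0.15 (adjusted p = 0.00917), Nusap1 by 0.62 ± 0.11 (adjusted p = 0.00515), Kif2c by 0.63 ± 0.12 (adjusted p = 0.00622), Tpx2 by 0.56 ± 0.12 (adjusted p = 0.0115) and Kif4 by 0.71 ± 0.20 (adjusted p = 0.0434). Without CSA replicate 2 of day 3 the calls of Ckap2l (adjusted p = 0.0935), Kif2c (0.0697), Tpx2 (0.113) and Kif4 (0.0939) ended. Kif4 also lost its call without CSA replicate 1 (0.229) or DMSO replicate 2 (0.227) of day 3, or CSA replicate 1 of day 6 (0.05), and Tpx2 without DMSO replicate 1 of day 3 (0.0539). Averaging the probe sets of each gene put Nusap1 at -1.04 (adjusted p = 0.0862), Ckap2l at -0.40 (0.062), Kif2c at -0.29 (0.571) and Tpx2 at -0.28 (0.368). Kif4 has 1 probe set, so its difference stayed at -0.71 in that fit, where its adjusted p was 0.0511. For Hmmr, leaving out probe sets of the type that may read several genes or transcripts put it at -0.09 (adjusted p = 0.931). Kif20b differed by -0.26 ± 0.11 (adjusted p = 0.16).

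Of 5 cytokinesis genes, 3 fell. Kif23, the motor subunit of centralspindlin, stood at 9.53 and 9.65 in CSA and 10.35 and 10.41 in DMSO at day 3, and at 9.55 and 9.81 in CSA and 9.80 and 9.67 in DMSO at day 6. It fell by 0.80 ± 0.12 (adjusted p = 0.00158), and averaging its probe sets put it at -0.56 (adjusted p = 0.378). Kif20a, a midzone kinesin, stood at 9.22 and 9.33 in CSA and 10.06 and 10.20 in DMSO at day 3, and at 9.41 and 9.78 in CSA and 9.58 and 9.53 in DMSO at day 6 and fell by 0.85 ± 0.13 (adjusted p = 0.00236). Anln encodes anillin, a scaffold of the contractile ring. It stood at 12.36 and 12.39 in CSA and 12.74 and 12.67 in DMSO at day 3, and at 12.22 and 12.34 in CSA and 12.41 and 12.47 in DMSO at day 6 and fell by 0.33 ± 0.07 (adjusted p = 0.0107). Its call ended without CSA replicate 1 (adjusted p = 0.0846), CSA replicate 2 (0.0667) or DMSO replicate 1 (0.0565) of day 3. Prc1, which bundles midzone microtubules, differed by -0.24 ± 0.09 (adjusted p = 0.127), and Ect2, the activator of RhoA at the furrow, by -0.61 ± 0.22 (adjusted p = 0.124).

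Of 6 condensin and chromosome structure genes, 5 fell. Ncaph, a condensin I subunit, stood at 10.01 and 10.19 in CSA and 10.68 and 11.01 in DMSO at day 3, and at 10.27 and 10.44 in CSA and 10.71 and 10.85 in DMSO at day 6. It fell by 0.74 ± 0.12 (adjusted p = 0.00349). Top2a, the topoisomerase that untangles sister chromatids, stood at 11.35 and 11.28 in CSA and 11.72 and 11.80 in DMSO at day 3, and at 11.54 and 11.46 in CSA and 11.67 and 11.76 in DMSO at day 6 and fell by 0.44 ± 0.07 (adjusted p = 0.00395). Smc4, a core condensin ATPase, stood at 11.76 and 11.67 in CSA and 12.07 and 12.03 in DMSO at day 3, and at 11.89 and 11.88 in CSA and 12.13 and 12.01 in DMSO at day 6. It fell by 0.34 ± 0.07 (adjusted p = 0.0123). Mki67, which encodes the proliferation marker Ki-67, stood at 11.03 and 11.05 in CSA and 11.27 and 11.50 in DMSO at day 3, and at 11.41 and 11.57 in CSA and 11.76 and 11.62 in DMSO at day 6 and fell by 0.35 ± 0.09 (adjusted p = 0.0415). Ncapg fell by 0.83 ± 0.21 (adjusted p = 0.0274), and Smc2, the partner of SMC4, stood at 11.38 and 11.63 in CSA and 11.71 and 11.71 in DMSO at day 3, and at 11.10 and 11.20 in CSA and 11.13 and 11.11 in DMSO at day 6 and differed by -0.21 ± 0.09 (adjusted p = 0.19). The Smc4 call ended without CSA replicate 2 (adjusted p = 0.113) or DMSO replicate 1 (0.0535) of day 3, and that of Ncapg without CSA replicate 1 (0.207), DMSO replicate 1 (0.0835) or DMSO replicate 2 (0.111). The Mki67 call ended without CSA replicate 1 (0.181), CSA replicate 2 (0.155) or DMSO replicate 2 (0.224) of day 3, or DMSO replicate 1 (0.0554) or 2 (0.0551) of day 6. Averaging its probe sets put Top2a at -0.33 (adjusted p = 0.586), and without several-gene probe sets it was at -0.53 (0.251).

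The group of the anaphase-promoting complex, securin and separase held 5 genes, and all 5 fell. Pttg1 encodes securin, which keeps separase inactive until anaphase, and it stood at 11.34 and 11.32 in CSA and 11.86 and 11.84 in DMSO at day 3, and at 11.68 and 11.57 in CSA and 12.15 and 12.10 in DMSO at day 6. It fell by 0.52 ± 0.07 (adjusted p = 0.00107); this probe set is of a type that may read several genes or transcripts, and the other 2 probe sets differed by -0.17 (adjusted p = 0.589) and -0.47 (adjusted p = 0.513). Ube2c, the ubiquitin-conjugating enzyme of the complex, stood at 11.97 and 11.81 in CSA and 12.43 and 12.60 in DMSO at day 3, and at 11.85 and 12.11 in CSA and 12.29 and 12.18 in DMSO at day 6. It fell by 0.63 ± 0.10 (adjusted p = 0.00252). Cdca3, known as a trigger of mitotic entry, stood at 10.41 and 10.34 in CSA and 10.91 and 10.91 in DMSO at day 3, and at 10.09 and 10.08 in CSA and 10.20 and 10.35 in DMSO at day 6 and fell by 0.54 ± 0.09 (adjusted p = 0.00372). Cdc20, the activator of the complex and the target of the checkpoint, stood at 12.82 and 12.74 in CSA and 13.17 and 13.13 in DMSO at day 3, and at 12.50 and 12.55 in CSA and 12.96 and 13.11 in DMSO at day 6. It fell by 0.37 ± 0.07 (adjusted p = 0.00636), and by 0.33 without CSA replicate 2 of day 3 (adjusted p = 0.071). The separase gene Espl1 fell by 0.95 ± 0.18 (adjusted p = 0.00674). Averaging the probe sets of each gene put Pttg1 at -0.39 (adjusted p = 0.138) and Cdca3 at -0.40 (0.372).

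**Figure D2:**
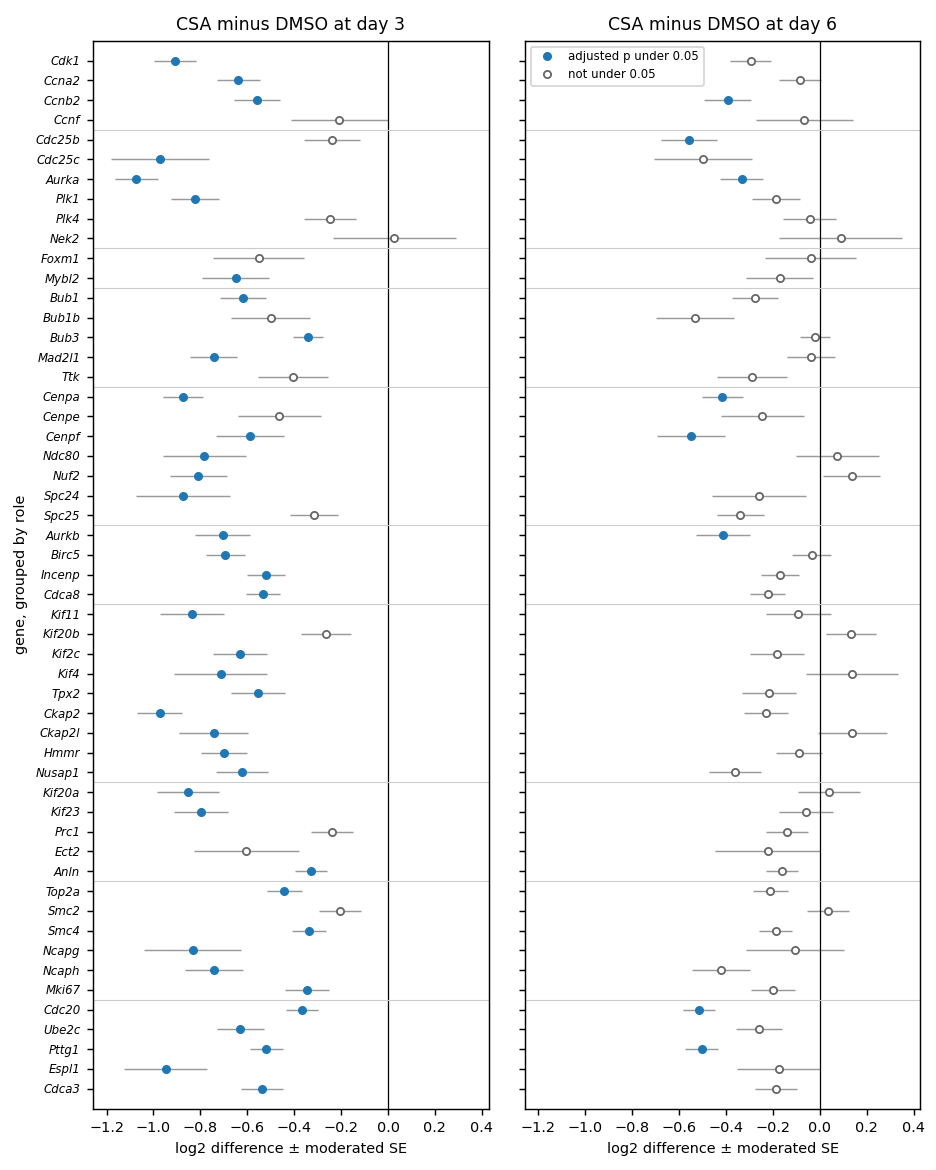
CSA minus DMSO in log2 signal at day 3 (left) and day 6 (right) for the 53 genes, grouped by role; points are differences, bars are moderated standard errors and filled points have an adjusted p under 0.05 (limma). Filled points number 40 at day 3 and 8 at day 6, all left of 0.

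Of the matched promoters, a CHR was present in 25 of the 32 belonging to genes that fell at day 3, and in 9 of the 12 belonging to genes that did not pass. A CCAAT box was present in 22 of the 32 and in 10 of the 12; the other matched promoter is that of Ccnb1. These counts are given as a description with no test.

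Fewer of the genes passed at day 6. Of the 53 genes, 8 fell and 0 rose, where 4.56% of all tested probe sets fell and 5.11% rose. The median difference was -0.19, against -0.01 over all genes tested, and the range was -0.56 to 0.14. At an unadjusted p under 0.05 in limma, 21 genes were lower and 0 higher, beside 1882 lower and 1726 higher of all 12529 genes tested. Both CSA arrays lay below both DMSO arrays in 30 of 53 genes, and this order was not counted over all genes tested. Of the 8 genes, 7 had also fallen at day 3, and 33 genes fell at day 3 without passing at day 6. Across the 53 genes, which were read on the same arrays, the day 6 and day 3 differences had a Pearson r of 0.076 and a Spearman rho of 0.034, given as a description.

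Cdc20 and Pttg1 had the smallest p-values at day 6. With the array values given above, Cdc20 fell by 0.52 ± 0.07 (adjusted p = 0.000839) and Pttg1 by 0.50 ± 0.07 (adjusted p = 0.00115), and both stayed past the threshold whichever array was left out. Both lost the call on averaging their probe sets, which put Cdc20 at -0.35 (adjusted p = 0.091) and Pttg1 at -0.29 (0.249), and without the intensity trend (0.0632 for Cdc20 and 0.0566 for Pttg1). Cenpa fell by 0.42 ± 0.09 (adjusted p = 0.0114), Ccnb2 by 0.39 ± 0.10 (adjusted p = 0.0285), Aurka by 0.33 ± 0.09 (adjusted p = 0.0435) and Aurkb by 0.41 ± 0.12 (adjusted p = 0.0468). Cenpf stood at 8.82 and 9.03 in CSA and 9.73 and 9.30 in DMSO at day 3, and at 9.86 and 9.77 in CSA and 10.29 and 10.44 in DMSO at day 6. It fell by 0.55 ± 0.15 (adjusted p = 0.0362). Cdc25b encodes a phosphatase that starts CDK1 activation at centrosomes, and it stood at 9.42 and 9.36 in CSA and 9.50 and 9.76 in DMSO at day 3, and at 9.72 and 9.89 in CSA and 10.30 and 10.43 in DMSO at day 6. It was the 1 gene past the threshold at day 6 and not at day 3, with a fall of 0.56 ± 0.12 (adjusted p = 0.0134); its 2 differences were not shown to differ (interaction -0.32 ± 0.17 (adjusted p = 0.343)).

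The day 6 calls depended on single arrays and on the choice of probe set. The count was 5 without CSA replicate 1, 4 without CSA replicate 2 and 3 without either DMSO array of day 6. Cenpa, Ccnb2, Aurka, Aurkb, Cenpf and Cdc25b each lost the call without at least 1 array of day 6, with adjusted p up to 0.0855, 0.163, 0.225, 0.212, 0.213 and 0.114. Aurka and Aurkb also lost it without CSA replicate 1 or 2 of day 3 (adjusted p of 0.0634 to 0.068). With the mean over all probe sets 3 genes fell, and Cenpa then stood at 0.33 (adjusted p = 0.711). For Pttg1 the probe set not of the several-gene type differed by -0.05 (adjusted p = 0.963). Without the intensity trend 0 genes passed in limma, with 16 lower and 0 higher at an unadjusted p under 0.05. Of the 8 calls, 0 were kept under all alternatives other than the one without the trend.

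**Figure D3:**
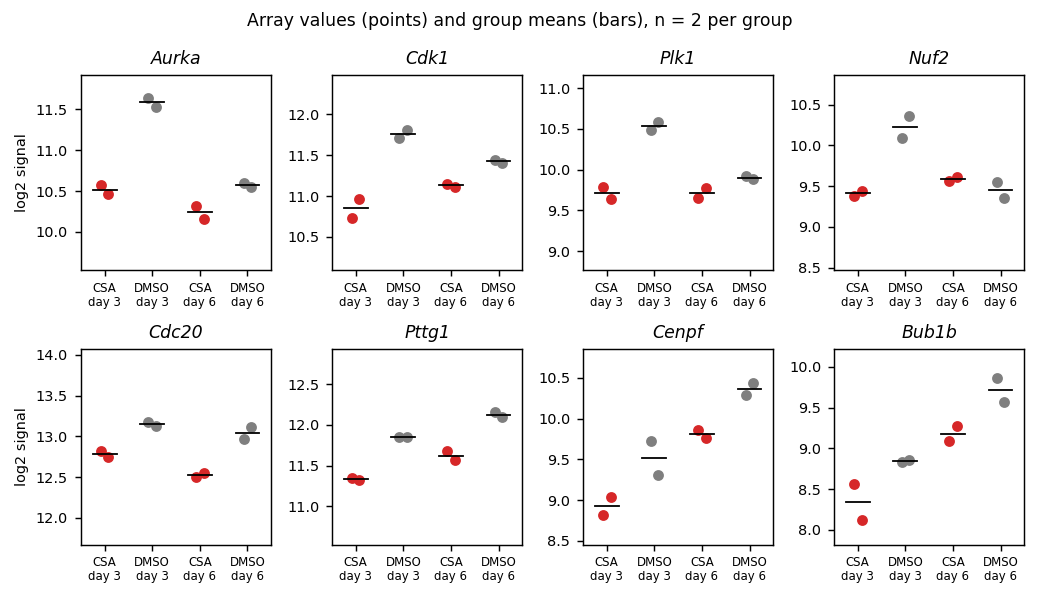
Log2 signal of 8 genes in the 8 arrays (points) with group means (bars), CSA left of DMSO at day 3 and then at day 6, each panel spanning the same range of log2 units. In Aurka, Cdk1, Plk1 and Nuf2 the DMSO arrays of day 3 stand above the others, whereas Cdc20 and Pttg1 are lower in CSA at both days and Cenpf and Bub1b are higher at day 6 in both treatments.

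The difference between the days in the CSA effect was tested as an interaction, the CSA effect at day 6 minus that at day 3. It was positive in 49 of 53 genes, with a median of 0.35 against -0.01 over all genes tested. It passed the test in 12 genes, all positive, where 1.84% of all tested probe sets were positive and past the threshold and 2.39% negative and past it. Nuf2 had the largest interaction, 0.94 ± 0.17 (adjusted p = 0.0129), from a CSA difference of 0.14 at day 6 and -0.81 at day 3. Kif20a was at 0.89 ± 0.19 (adjusted p = 0.0242), Ckap2l at 0.88 ± 0.21 (adjusted p = 0.0396) and Aurka at 0.74 ± 0.13 (adjusted p = 0.0108). Birc5 was at 0.66 ± 0.12 (adjusted p = 0.0116), Ckap2 at 0.74 ± 0.13 (adjusted p = 0.0125), Mad2l1 at 0.71 ± 0.14 (adjusted p = 0.0213) and Cdk1 at 0.61 ± 0.12 (adjusted p = 0.0216). The others were Kif23, Plk1, Hmmr and Ccna2. Of the 7 genes that fell at both days, Aurka was the 1 whose interaction passed. It was -0.15 ± 0.10 (adjusted p = 0.458) for Cdc20, 0.02 ± 0.10 (adjusted p = 0.955) for Pttg1 and 0.04 ± 0.21 (adjusted p = 0.949) for Cenpf. It was 0.17 ± 0.14 (adjusted p = 0.579) for Ccnb2, 0.29 ± 0.16 (adjusted p = 0.378) for Aurkb and 0.46 ± 0.12 (adjusted p = 0.0605) for Cenpa. None of the 12 calls stayed past the threshold under every omission of 1 array. The count was 3 and 1 without CSA replicates 1 and 2 of day 3, and 8 and 5 without DMSO replicates 1 and 2 of that day. It was 11 and 5 without CSA replicates 1 and 2 of day 6, and 4 and 1 without DMSO replicates 1 and 2 of that day. Without the intensity trend 0 genes passed in limma, with 23 positive and 0 negative at an unadjusted p under 0.05. Averaging the probe sets of each gene left 8 genes past the threshold, all positive. Of the 4 called genes with several tested probe sets, 0 had another probe set called the same way.

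Day 6 was also set against day 3 within each treatment. In CSA, 8 of 53 genes fell and 10 rose at day 6 against day 3, where 12.8% of all tested probe sets fell and 18.1% rose. In DMSO, 28 fell and 5 rose, where 16.8% fell and 23.8% rose. The median difference was 0.05 in CSA and -0.33 in DMSO, against 0.08 over all genes tested in each. The scaling of the arrays moved these splits. The median of all tested probe sets shifted by 0.12 in CSA and 0.10 in DMSO as deposited, and by -0.10 and -0.15 when arrays were centred on their medians. After median centring 13 genes fell and 2 rose in CSA, and 39 fell and 3 rose in DMSO; after quantile normalization 7 fell and 7 rose in CSA, and 30 fell and 5 rose in DMSO. The count of calls in CSA was 8 and 7 without CSA replicates 1 and 2 of day 3, 11 without either CSA array of day 6 and 3 without the intensity trend. The comparisons of days share no arrays with each other, but each shares arrays with the CSA comparisons.

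The smallest p-values for the days in DMSO belonged to Birc5, Aurka, Ccna2, Cdca8 and Mad2l1, which all fell. Birc5 was at 10.85 and 10.68 at day 6 and 11.68 and 11.78 at day 3 and fell by 0.96 ± 0.08 (adjusted p = 5.9e-06). Aurka, with the values given above, fell by 1.02 ± 0.09 (adjusted p = 7.81e-06), Ccna2 by 0.99 ± 0.09 (adjusted p = 9.09e-06), Cdca8 by 0.73 ± 0.07 (adjusted p = 1.79e-05) and Mad2l1 by 0.93 ± 0.10 (adjusted p = 2.95e-05). Ndc80 had the largest fall, 1.15 ± 0.18 (adjusted p = 0.000328). The falls of Birc5, Ccna2, Cdca8, Mad2l1 and Ndc80 in DMSO kept their calls under all alternatives in which they had a value. That of Aurka did not. Averaging the probe sets of each gene left 18 falls and 3 rises in DMSO. In CSA arrays, Ccna2 fell by 0.43 ± 0.09 (adjusted p = 0.00417) and Cdca8 by 0.42 ± 0.07 (adjusted p = 0.00145). Birc5 fell there by 0.30 ± 0.08 (adjusted p = 0.018), Aurka by 0.28 ± 0.09 (adjusted p = 0.0387), Cdca3 by 0.29 ± 0.09 (adjusted p = 0.0293) and Smc2 by 0.35 ± 0.09 (adjusted p = 0.0115). Spc25 stood at 9.77 and 9.91 in CSA and 10.13 and 10.18 in DMSO at day 3, and at 9.48 and 9.57 in CSA and 9.83 and 9.89 in DMSO at day 6 and fell by 0.32 ± 0.10 (adjusted p = 0.0348), and Cdc20 by 0.26 ± 0.07 (adjusted p = 0.0136). Apart from Ccna2 and Cdca8, each of these CSA falls lost its call without at least 1 CSA array, with the highest adjusted p at 0.0918 for Birc5, 0.22 for Aurka, 0.161 for Cdca3, 0.125 for Smc2, 0.212 for Spc25 and 0.107 for Cdc20. The direction in CSA turned to 0.039 for Cdc20 and 0.44 for Spc25 without several-gene probe sets, and to 0.41 for Cdca3 and 0.059 for Spc25 on averaging probe sets.

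In both treatments, 5 genes rose between the days. Of all tested probe sets, 18.1% rose in CSA and 23.8% in DMSO, and those that rose in both were not counted. Bub1b stood at 8.56 and 8.12 in CSA and 8.83 and 8.86 in DMSO at day 3, and at 9.09 and 9.28 in CSA and 9.87 and 9.56 in DMSO at day 6. It rose by 0.84 ± 0.17 (adjusted p = 0.0032) in CSA and by 0.87 ± 0.17 (adjusted p = 0.00158) in DMSO. The Bub1b call in CSA was kept under all alternatives, and that in DMSO was not. Cenpf rose by 0.88 ± 0.15 (adjusted p = 0.000935) in CSA and by 0.85 ± 0.15 (adjusted p = 0.000714) in DMSO. Cdc25b rose by 0.42 ± 0.12 (adjusted p = 0.0206) in CSA and by 0.74 ± 0.12 (adjusted p = 0.000474) in DMSO. For Mki67 the rise was 0.45 ± 0.09 (adjusted p = 0.00434) in CSA and 0.30 ± 0.09 (adjusted p = 0.0247) in DMSO, and for Pttg1 0.29 ± 0.07 (adjusted p = 0.00925) in CSA and 0.27 ± 0.07 (adjusted p = 0.0087) in DMSO. Cdk1 was the 1 gene that moved in opposite directions, with a rise of 0.28 ± 0.09 (adjusted p = 0.0321) in CSA and a fall of 0.33 ± 0.09 (adjusted p = 0.0106) in DMSO. After median centring the differences in CSA were 0.07 for Cdk1 (adjusted p = 0.63), 0.07 for Pttg1 (0.469), 0.20 for Cdc25b (0.223) and 0.23 for Mki67 (0.0846), and those in DMSO were 0.02 for Pttg1 (0.82) and 0.05 for Mki67 (0.709). The Cdk1 rise in CSA also lost its call without CSA replicate 1 of day 3 (0.274), CSA replicate 1 of day 6 (0.113) or CSA replicate 2 of day 6 (0.0814), and its fall in DMSO without DMSO replicate 2 of day 3 (0.0665) or day 6 (0.064).

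**Figure D4:**
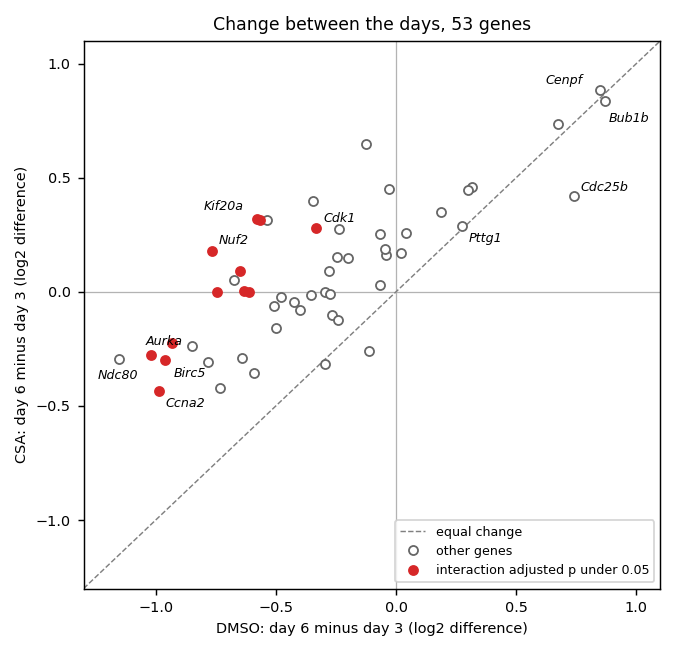
Day 6 minus day 3 in log2 signal for the 53 genes, in CSA (vertical axis) against DMSO (horizontal axis); the dashed line marks equal change and filled points are the 12 genes with an interaction past the threshold (limma). All 12 lie above the line, and Cenpf, Bub1b and Pttg1 lie close to it at the upper right.

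The rest of the mitotic machinery was read from a list of further genes. Of 90 tested, 26 fell and 1 rose at day 3, where 4.23% of all tested probe sets fell and 5.35% rose. The median was -0.33, against -0.00 over all genes tested. Among them Cep55, which directs abscission, differed by -0.70 ± 0.08 (adjusted p = 0.000427), Pbk, a mitotic kinase, by -0.63 ± 0.08 (adjusted p = 0.000651), and Kifc1, a minus-end kinesin, by -0.98 ± 0.13 (adjusted p = 0.000799). Melk differed by -0.88 ± 0.12 (adjusted p = 0.00119), Depdc1a by -0.92 ± 0.13 (adjusted p = 0.00172) and Cdca5, the sororin gene, by -0.61 ± 0.10 (adjusted p = 0.00316). The 1 gene that rose was Nek6, a mitotic kinase, by 0.57 (adjusted p = 0.0267). Leaving out 1 array put the count of calls between 11, without CSA replicate 1 of day 3, and 26, and it was 12 without CSA replicate 2 or DMSO replicate 1 of day 3. At day 6, 8 genes of the list fell and 1 rose, beside 4.56% and 5.11% of all tested probe sets, with a median of -0.13 against -0.01 over all genes tested. Cks2, a CDK-binding subunit, differed by -0.37 ± 0.07 (adjusted p = 0.00601), Melk by -0.54 ± 0.12 (adjusted p = 0.0175) and Psrc1 by -0.52 ± 0.12 (adjusted p = 0.0189). Fzr1, the CDH1 activator of the anaphase-promoting complex, differed by -0.53 ± 0.12 (adjusted p = 0.0211), Bora by -0.57 ± 0.14 (adjusted p = 0.0288) and Nek7, which rose, by 0.27 ± 0.07 (adjusted p = 0.0387).

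Regulators that read the CHR, E2F and CCAAT elements were listed as well. Of 21 such genes, 1 fell at day 3 (Rbbp4, a MuvB subunit, by 0.34 ± 0.06 (adjusted p = 0.00404)) and 1 at day 6 (Rb1, by 0.40 ± 0.07 (adjusted p = 0.00441)), shares near the 4.23% and 4.56% of all tested probe sets that fell at those days. At day 3 the difference was negative in 17 of the 21, and at an unadjusted p under 0.05 in limma 7 were lower and 0 higher. Of all 12529 genes tested, 1722 were lower and 1907 higher at that unadjusted threshold. E2f1 differed by -0.73 ± 0.24 (adjusted p = 0.091), E2f8 by -0.71 ± 0.24 (adjusted p = 0.0933), E2f2 by -0.90 ± 0.33 (adjusted p = 0.123) and Lin9, a MuvB subunit, by -0.53 ± 0.17 (adjusted p = 0.0797) at day 3.

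DNA replication genes, which are expressed ahead of mitosis from the G1/S boundary, were lower under CSA at day 3 as well. Of 51 tested genes, 27 fell and 0 rose at day 3, beside 4.23% and 5.35% of all tested probe sets, with a median of -0.48 and negative differences in all 51. Mcm5, a subunit of the replicative helicase, differed by -0.98 ± 0.07 (adjusted p = 3.04e-05), Mcm7 by -0.69 ± 0.07 (adjusted p = 0.000131), Mcm3 by -0.75 ± 0.08 (adjusted p = 0.000206) and Mcm4 by -0.67 ± 0.08 (adjusted p = 0.000504). Dut, which removes dUTP, differed by -0.72 ± 0.07 (adjusted p = 0.000234), and Rrm1, a subunit of ribonucleotide reductase, by -0.81 ± 0.09 (adjusted p = 0.00035). At day 6, 5 genes fell and 0 rose, beside 4.56% and 5.11% of all tested probe sets, with a median of -0.12. The interaction passed in 9 genes, all positive, beside 1.84% of all tested probe sets, and was led by Mcm5 at 0.97 ± 0.10 (adjusted p = 0.000914).

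Of the 13 G1 cyclins and CDK inhibitors, 3 fell and 1 rose at day 3, beside 4.23% and 5.35% of all tested probe sets. The median was -0.25, with negative differences in 9 of the 13. At day 6, 0 fell and 3 rose, beside 4.56% and 5.11% of all tested probe sets. The median was then 0.05, with positive differences in 10 of the 13. At day 3, Ccnd3, a D-type cyclin, differed by -0.69 ± 0.11 (adjusted p = 0.00265), Cdkn2a, which encodes p16INK4a and p19ARF, by -0.79 ± 0.19 (adjusted p = 0.0203) and Cdkn2d by -0.51 ± 0.14 (adjusted p = 0.0446), and these 3 fell. Cdkn2b, which encodes the CDK4 and CDK6 inhibitor p15, rose by 0.57 ± 0.09 (adjusted p = 0.0037) at day 3 and by 0.77 ± 0.09 (adjusted p = 0.000561) at day 6. Ccnd2, at 0.39 ± 0.07 (adjusted p = 0.00434), and Cdk6, at 0.35 ± 0.10 (adjusted p = 0.0434), also rose at day 6, and 0 genes fell then. Between the days Cdkn2a rose by 2.66 ± 0.19 (adjusted p = 3.53e-06) in CSA and by 1.55 ± 0.19 (adjusted p = 5.69e-05) in DMSO.

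**Figure D5:**
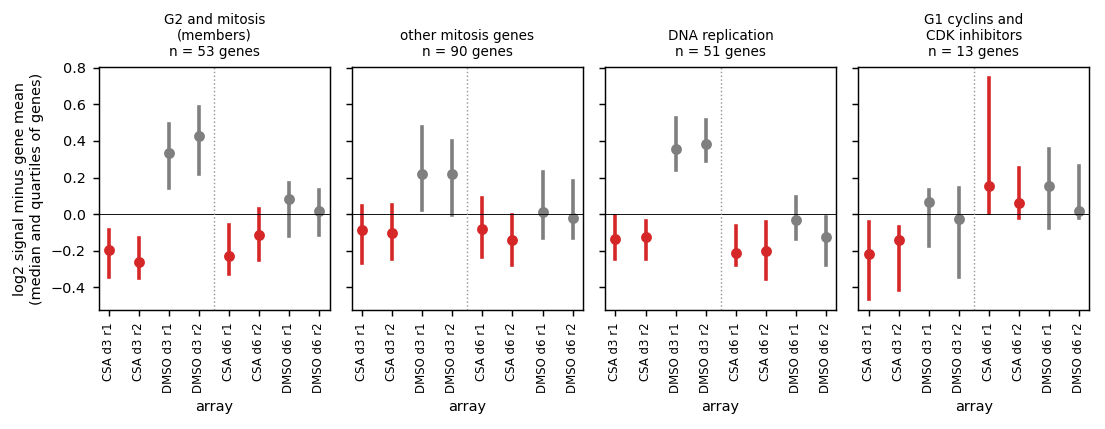
Median (points) and quartiles (lines) over the genes of 4 lists of the log2 signal minus each gene's mean over the 8 arrays, per array, CSA (red) left of DMSO (grey) at each day. For the 53 G2 and mitosis genes the medians are -0.20 and -0.26 in CSA and 0.33 and 0.43 in DMSO at day 3, and -0.23 and -0.11 in CSA and 0.08 and 0.02 in DMSO at day 6.

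Cell type markers also differed between the groups. The summed linear signal of the 8 epithelial markers was 26741 to 26814 in CSA and 20952 to 22193 in DMSO at day 3, and 31453 to 31531 in CSA and 41547 to 44008 in DMSO at day 6. That of the 10 fibroblast markers was 12857 to 12981 in CSA and 10932 to 11131 in DMSO at day 3, and 32833 to 33020 in CSA and 36278 to 36813 in DMSO at day 6. For 7 keratinocyte markers it was 6623 to 7097 in CSA and 4482 to 4626 in DMSO at day 3, and 5098 to 5277 in CSA and 3690 to 3875 in DMSO at day 6, with Krt5, Krt15 and Trp63 below the filter. The 10 pluripotency markers summed to 1247 to 1553 in CSA and 1324 to 1403 in DMSO at day 3, and to 1765 to 1790 in CSA and 2623 to 3131 in DMSO at day 6. Macrophage markers, with Ptprc below the filter, summed to 475 to 518 in CSA and 485 to 523 in DMSO at day 3, and to 723 to 751 in CSA and 636 to 643 in DMSO at day 6. Endothelial markers, with Pecam1 and Cdh5 below the filter, summed to 1414 to 1550 in CSA and 1492 to 1550 in DMSO at day 3, and to 2045 to 2098 in CSA and 1397 to 1473 in DMSO at day 6. At day 3, where 5.35% of all tested probe sets rose and 4.23% fell, 5 of 8 epithelial markers rose, and the other 3 were lower at an unadjusted p under 0.05 in limma without passing the adjusted test. Of the tested markers of other types at day 3, 2 of 10 fibroblast markers rose and 1 fell, 2 of 4 keratinocyte markers rose and 1 of 5 pluripotency markers fell. At day 6, where 5.11% of all tested probe sets rose and 4.56% fell, 5 of 8 epithelial, 2 of 10 fibroblast and 2 of 5 pluripotency markers fell, while 2 of 4 keratinocyte markers and 1 of 2 endothelial markers rose. By limma, 0 of 5 macrophage markers passed at either day and 0 of 2 endothelial markers at day 3, also at an unadjusted p under 0.05. The part of such shifts in the differences of the G2 and mitosis genes was not tested.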

How the data were processed

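Total RNA of 8 cultures was hybridised to Affymetrix 3' arrays. The authors deposited log2 signals for 45037 probe sets on each array; per the submitters' processing notes they were made with MAS5, while the sources used here give no version, scaling target or scan batch. Groups were taken from each sample's own label.

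Probe sets were kept where their mean log2 signal reached the 40th percentile (5.37), which left 27022 for limma 3.58.1 in R 4.3.3: 1 mean per group over all 8 arrays (4 residual degrees of freedom), empirical Bayes with an intensity trend, two-sided, Benjamini-Hochberg over all tested probe sets, threshold 0.05. The number of arrays limits the precision, and the script was tested on simulated data for CSA at day 3. There, 24 of 50 changes of 1 in log2 and 18 of 50 changes of -1 were recovered. For changes of 2 and of -2 it was 36 of 50 each. A gene that did not pass was thus not shown to be unchanged. The platform annotation held 34945 probe sets with 1 symbol and 932 with several, and 9160 were absent from it. A gene was its brightest probe set with 1 symbol.

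The genes and lists were chosen with earlier results of these data known. Values in every array were given for up to 3 genes per role with the smallest p at day 3, up to 8 each at day 6 and for the interaction, up to 5 for each comparison of days, genes past a threshold against most others, and Foxm1, Mybl2, Cdk1, Mki67 and Top2a; other lists named up to 6 genes. The labels do not say that replicate numbers pair the arrays, and deviations of same-numbered arrays correlated at -0.003 to 0.034 between groups. Whether same-numbered repeats share an origin is not given. Alternatives were other scalings, pseudocounts of 8 and 32, a floor at log2 5, no filter, a 60th percentile filter, no intensity trend, only the arrays compared, mean of probe sets, no probe sets of a type that may read several genes or transcripts, a replicate block and leaving out each array.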

Additional observations from a re-analysis of the deposited data

Results flagged for a closer look

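The interaction test in limma over all tested probe sets passed in 12 of the 53 G2 and mitosis genes, all positive. Of all tested probe sets, 1.84% were positive and past the threshold and 2.39% negative and past it. Without the intensity trend 0 of the 53 genes passed, and 8 passed when the probe sets of each gene were averaged. The 12 calls also depended on single arrays, as described above. Each value is the CSA effect at day 6 minus that at day 3 on the log2 scale. It was 0.74 for Aurka (adjusted p = 0.0108), 0.66 for Birc5 (adjusted p = 0.0116), 0.74 for Ckap2 (adjusted p = 0.0125) and 0.94 for Nuf2 (adjusted p = 0.0129). It was 0.71 for Mad2l1 (adjusted p = 0.0213), 0.61 for Cdk1 (adjusted p = 0.0216), 0.89 for Kif20a (adjusted p = 0.0242) and 0.74 for Kif23 (adjusted p = 0.0307). The remaining values were 0.61 for Hmmr (adjusted p = 0.0327), 0.63 for Plk1 (adjusted p = 0.0338), 0.55 for Ccna2 (adjusted p = 0.0371) and 0.88 for Ckap2l (adjusted p = 0.0396). Nuf2, Kif20a and Ckap2l had a negative difference at day 3 and a positive one, not past the threshold, at day 6, while in the others the difference was negative at both days. No outlier test was possible within groups of 2 arrays.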

How the results depend on the processing

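Under every setting run, 0 of the genes rose at day 3 by limma's adjusted p, and the median stayed between -0.63 and -0.55; at day 6 it stayed between -0.21 and -0.13. Without the intensity trend the counts past the threshold were 8 at day 3, 0 at day 6 (16 lower and 0 higher at an unadjusted p under 0.05 in limma), 3 for the days in CSA, 0 for the interaction (23 positive and 0 negative at an unadjusted p under 0.05) and 5 for the other mitosis genes at day 3. Averaging the probe sets of each gene gave 26 at day 3, 3 at day 6, 21 for the days in DMSO, 8 for the interaction and 15 for the other mitosis genes. Without probe sets of a type that may read several genes or transcripts, 5 of the 43 genes left passed at day 6. Leaving out 1 array gave 27 to 42 at day 3, 3 to 9 at day 6, 7 to 18 for the days in CSA, 26 to 34 for the days in DMSO, 1 to 11 for the interaction and 11 to 26 for the other mitosis genes. Some directions turned. After averaging, Nek2 was at -0.82 (adjusted p = 0.0494), Bub3 at 0.15, Kif2c at 0.19 and Smc2 at 0.10 for the days in DMSO, Spc25 at 0.059 and Cdca3 at 0.41 for the days in CSA, and Cenpa at 0.33 at day 6. Without several-gene probe sets Cenpa was at 0.11 and Spc25 at 0.053 for the days in DMSO, and Spc25 at 0.44 and Cdc20 at 0.039 for the days in CSA. Median centring put the median for the days in CSA at -0.16 and Smc4 for the days in DMSO at -0.23 (adjusted p = 0.023), and Ect2 for the days in CSA ran from -0.52 to 0.43 over the omissions of 1 array, with 0.43 without CSA replicate 2 of day 6 (adjusted p = 0.0288). The causes were not tested. With the replicate block the counts were 40 at day 3, 9 at day 6, 17 for the days in CSA, 34 for the days in DMSO, 12 for the interaction and 29 for the other mitosis genes. The labels do not say that replicate numbers pair the arrays. The number of arrays limits the precision, and signal over background was not used here.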
